A study of Mus musculus with 4 samples.

Results

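TRAV12 is a family of V segments of the T-cell receptor alpha chain, called V alpha 8 in older nomenclature. Its members here were the productive, full-length, high-confidence alpha-chain (TRA) contigs of called cells whose V segment was named TRAV12, TRAV12D or TRAV12N, without segments shared with the delta chain. They came to 762 of 13497 TRA contigs, or 5.65%, in 751 of the 11975 cells that had a TRA contig. Counting each combination of V segment, J segment and CDR3 nucleotides once per library left 514 distinct TRAV12 rearrangements among 8342.

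The contigs came from single-cell receptor sequencing of pancreatic islets, with 2 libraries from Tet2KO NOD mice and 2 from NOD mice. NOD mice develop autoimmune diabetes spontaneously, and Tet2 encodes an enzyme that oxidises methylcytosine in DNA. Tet2KO NOD mice carried the Tet2-/- alleles, bred from a B6 background onto NOD for over 14 generations, and NOD mice carried no engineered allele that the labels name. Each library pooled islets of 4 to 6 mice, so a pool is the replicate, and a rearrangement in a pool may come from several mice. The weeks 10 to 13 are an age in the design text and a time after "BTM" in the protocol, which also names donors for bone marrow transplant. Neither the age nor a transplant was settled here. The contig tables hold receptor chains alone, so the loss of Tet2 was not checked.

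An alpha chain is made by joining 1 of many V segments to 1 of many J segments, with bases trimmed and added at the join. The V segment encodes CDR1 and CDR2, the loops that mostly contact the MHC molecule, while the join forms CDR3, the loop that mostly contacts the peptide. A T cell can rearrange its alpha locus again, moving to V segments farther upstream and J segments farther downstream, and can keep a second alpha chain. In the mouse the V alpha region is partly duplicated, and the letters D and N mark the copies, so that several segments share most of their sequence.

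In the GRCm38 annotation of GENCODE M21 all TRAV12 genes lie on the plus strand of chromosome 14. Those named in productive contigs were Trav12d-3 (chr14:52929789-52930282), Trav12n-1 (chr14:53155512-53156088), Trav12n-2 (chr14:53226773-53227400), Trav12-1 (chr14:53538191-53538738) and Trav12-3 (chr14:53621657-53622245). Their J partners lie downstream, between Traj58 (starting at 54157280) and Traj2 (starting at 54217836). TRAV12-2 was named in 1 full-length contig, which was nonproductive. TRAV12D-1, TRAV12D-2, TRAV12N-3 and the pseudogene TRAV12-4 were not named in any productive contig.

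The CDR1 sequences are shown because most members differ in them, although TRAV12-3 and TRAV12D-3 share 1. CDR2 was alike: 761 of 762 contigs carried the same 21 bases, agctccacagacaacaagagg. The exception was a contig named TRAV12-3 in NOD 1, whose annotated CDR1 and CDR2 begin farther along the sequence than in the others. Where they overlap, its CDR1 has the bases of the TRAV12N-1 CDR1 and not those of the TRAV12-3 CDR1. The sequences were read from the authors' contigs, 5′ to 3′, and capitals mark the bases at which the 2 forms of TRAV12N-2 differ.
TRAV12N-2 CDR1, commoner form: actGcttactcaActttc
TRAV12N-2 CDR1, rarer form: actActtactcaCctttc
TRAV12-3 and TRAV12D-3 CDR1: actatttactcaaatgctttc
TRAV12-1 CDR1: actacttatttaactattgcc
TRAV12N-1 CDR1: actacttactcagatgttgcc

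The name TRAV12N-2 thus covered 2 receptor sequences. Counted from 1 at the first base of CDR1 and from the commoner to the rarer form, they differ by G4A and A13C, which change 2 residues, A2T and T5P. Over the 267 bases of framework and CDR sequence before CDR3 they differ at 8 positions. The rarer form (102 contigs) matches the reference transcripts of Trav12n-2 and Trav12d-2 without a mismatch, and the commoner form (293 contigs) has 8 mismatches to each. Both forms occurred in each of the 4 libraries, and the commoner form made up 65.0% and 58.8% of the TRAV12N-2 rearrangements of Tet2KO NOD 1 and 2, and 58.3% and 63.5% of those of NOD 1 and 2. The name does not separate the N copy from the D copy, whose reference transcripts lie at the same distance from either form.

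TRAV12-3 and TRAV12D-3 could not be told apart by sequence before CDR3. The commonest V regions under the 2 names, 270 bases long, were identical, as were the second most common, which differ from the first by 2 bases. The nearest reference transcripts were Trav12d-3 and Trav12n-3 for either name, at 7 mismatches each, and Trav12-3 itself was at 8. TRAV12-1 and TRAV12N-1 each had 1 V-region sequence, in 116 and 76 contigs, at 2 and 4 mismatches from the reference transcripts of those names, and TRAV12N-1 was as near to Trav12d-1. TRAV12-1 and TRAV12-3 differ at 19 of the 270 bases.

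By name, TRAV12N-2 was the most used member, with 395 contigs (51.8% of the family) and 237 rearrangements. TRAV12-3 followed with 164 contigs and 142 rearrangements, TRAV12-1 with 116 and 69, TRAV12N-1 with 76 and 55, and TRAV12D-3 with 11 contigs in 11 rearrangements. TRAV12N-2 made up 1.91% and 2.99% of all distinct TRA rearrangements in Tet2KO NOD 1 and 2, and 2.89% and 3.14% in NOD 1 and 2. TRAV12-3 made up 0.859% and 1.85% in Tet2KO NOD 1 and 2, and 1.83% and 1.80% in NOD 1 and 2. In both segments Tet2KO NOD 1 was the low library, and the other 3 lay close together. TRAV12-1 made up 0.954% and 0.616% in Tet2KO NOD 1 and 2, and 0.867% and 0.798% in NOD 1 and 2, so here Tet2KO NOD 1 was the highest. TRAV12N-1 made up 0.382% and 0.792% in Tet2KO NOD 1 and 2, and 0.770% and 0.499% in NOD 1 and 2. TRAV12-1 was above TRAV12N-1 in 3 libraries and below it in Tet2KO NOD 2, and above TRAV12-3 in Tet2KO NOD 1 alone. TRAV12-1 and TRAV12N-1 therefore had no order beyond their spread, while by name TRAV12N-2 led and TRAV12D-3 was last in each library. This order does not carry over to sequences. The TRAV12-3 CDR1, even without contigs named TRAV12D-3, had more rearrangements than the commoner TRAV12N-2 form in Tet2KO NOD 2 (21 against 20) and NOD 1 (75 against 70). It had fewer in Tet2KO NOD 1 (9 against 13) and NOD 2 (36 against 40).

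**Figure D1:**
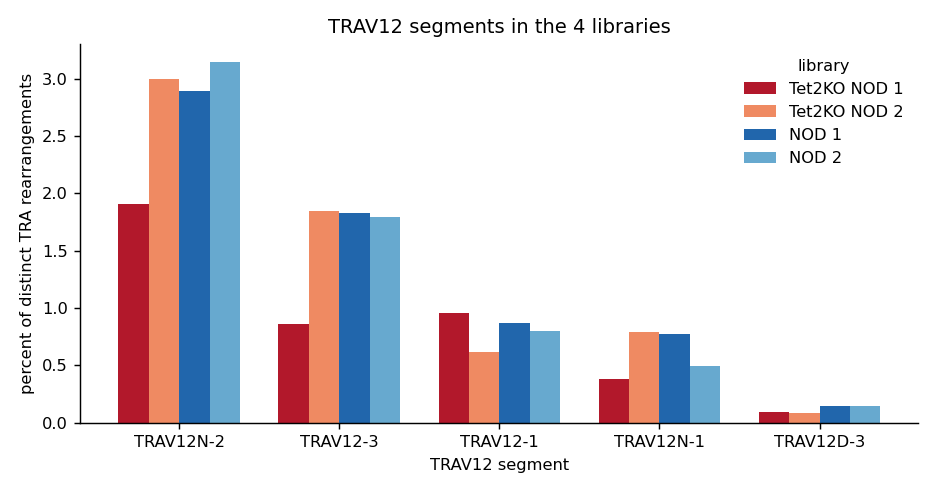
Percent of all distinct TRA rearrangements (vertical axis) that used each TRAV12 segment, with 1 bar per library. TRAV12N-2 is highest in each library, and Tet2KO NOD 1 has the lowest bars for TRAV12N-2, TRAV12-3 and TRAV12N-1.

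As a family, TRAV12 made up 4.20% and 6.34% of distinct rearrangements in Tet2KO NOD 1 and 2, and 6.50% and 6.39% in NOD 1 and 2, the 7th highest mean among families. The count table of TRAV families gave a log2 fold change of -0.28 ± 0.18 (SE) for Tet2KO NOD over NOD, with an adjusted p of 0.586 by edgeR's quasi-likelihood test. Leaving out Tet2KO NOD 2 gave -0.62 (adjusted p = 0.268 by edgeR), and leaving out Tet2KO NOD 1 gave -0.03 (adjusted p = 0.949). Of the 19 families tested, 0 passed (0% of the table), by edgeR or by DESeq2, and 1 had an unadjusted p under 0.05 in edgeR and 0 in DESeq2. Among the 96 TRAV and TRAJ segments tested, 0 passed as well (0%), by either tool, with 2 at an unadjusted p under 0.05 in edgeR and 0 in DESeq2. The 4 members that reached the count minimum had log2 fold changes of -0.11 (TRAV12-1), -0.40 (TRAV12-3), -0.18 (TRAV12N-1) and -0.27 (TRAV12N-2), each with an adjusted p of 0.976 by edgeR. Their median was -0.23, beside -0.03 over all 96 segments. Shares of the 2 genotypes did not overlap for 28.1% of the segments tested, and overlapped for each of the 4 members tested. TRAV12D-3, with 1 rearrangement in each Tet2KO NOD library against 6 and 3 in NOD 1 and 2, stayed under the count minimum. Its shares were 0.0954% and 0.0880% in Tet2KO NOD 1 and 2, and 0.144% and 0.150% in NOD 1 and 2, and did not overlap, but rest on these 11 rearrangements.

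By cells, TRAV12 contigs were 51 of 1905 (2.68%, 95% Wilson interval 2.04 to 3.50) in Tet2KO NOD 1 and 94 of 1671 (5.63%, 4.62 to 6.84) in Tet2KO NOD 2. They were 414 of 6908 (5.99%, 5.46 to 6.58) in NOD 1 and 203 of 3013 (6.74%, 5.90 to 7.69) in NOD 2. The intervals cover counting error only. The share averaged 4.15% ± 2.08 in Tet2KO NOD and 6.37% ± 0.53 in NOD (SD, n = 2 each), a difference of -2.21 percentage points. The libraries did not overlap, but the exact two-sided permutation test gave p = 0.333, the smallest value that 2 libraries against 2 allow. Without Tet2KO NOD 1 the difference was -0.74 points, and without Tet2KO NOD 2 it was -3.69, so the size of the difference rests on the first of these libraries.

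The productive count leaves out TRAV12 contigs marked as not full length, most of which lay in cells with a productive alpha chain. Among TRA contigs of called cells with a J segment, the authors' files mark 60 of 135 TRAV12 contigs in Tet2KO NOD 1 as not full length (44.4%) and 24.0% in Tet2KO NOD 2, and 23.2% and 20.8% in NOD 1 and 2. In other TRAV contigs that share ran between 2.38% and 3.20%. TRAV12 thus supplied 326 of all 748 such contigs, and was above other TRAV in 4 of 4 libraries (exact sign-flip permutation p = 0.125, the smallest that 4 libraries allow). The 326 contigs carried neither framework 1 nor CDR1, 194 had a CDR3, and their median length was 478 bases, against 583 bases in productive TRAV12 contigs. In Tet2KO NOD 1 and 2, 27 of 60 and 8 of 35 were in cells with no other productive TRA contig. In NOD 1 and 2, 30 of 162 and 18 of 69 were. The rest lay in cells that already had a productive alpha chain. By name, TRAV12N-2 (32.8%) and TRAV12N-1 (26.8%) were truncated most often, and TRAV12-1 (8.50%), TRAV12-3 (11.0%) and TRAV12D-3 (11.8%, on 17 contigs) less. Truncated contigs were named without the CDR1 in which most members differ, so this order is uncertain. In NOD 2, 1 TRAJ22 CDR3 with TRBV31 was named TRAV12N-1 in 9 cells and TRAV12-1 in 1. Among 58 other V segments with at least 50 contigs the median was 2.07%, and 4 exceeded 10%, led by TRAV13N-4 at 31.5%. Counting contigs that are not full length raised the TRAV12 share to 5.48% and 7.35% in Tet2KO NOD 1 and 2, and to 7.93% and 8.51% in NOD 1 and 2, an alternative chosen after seeing the data. In Tet2KO NOD 1 these contigs held clones larger than any productive TRAV12 clone of that library, at 16 cells (TRAV12N-2 with TRAJ9, no CDR3 given) and 14 cells (TRAV12N-2 with TRAJ35, an in-frame CDR3 of 39 bases). These 2 clones supplied 30 of the 60 contigs behind the 44.4% of that library, so that share depends on them.

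**Figure D2:**
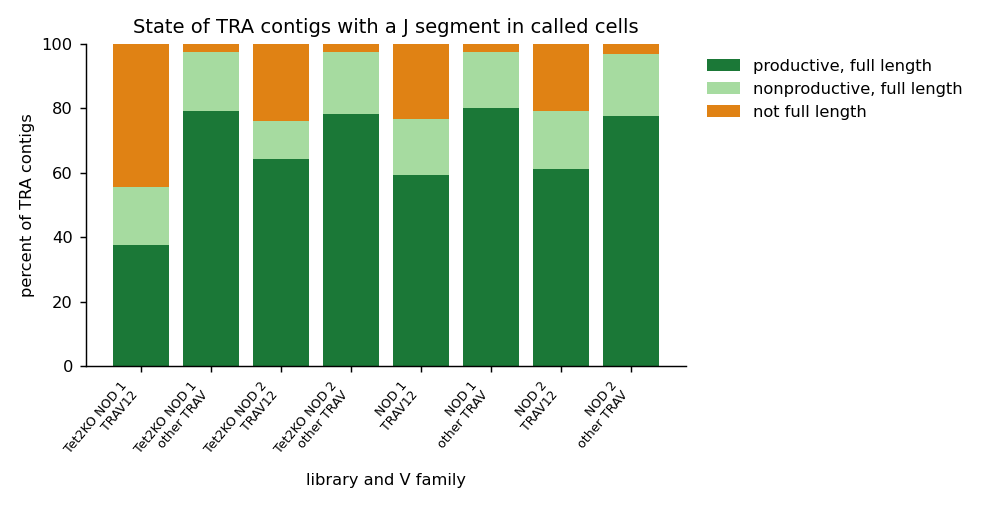
State of TRA contigs with a J segment in called cells, as percent of contigs, for TRAV12 and other TRAV in each library. The part marked not full length is 44.4% of TRAV12 contigs in Tet2KO NOD 1 and at most 3.20% of other TRAV contigs in any library. In Tet2KO NOD 1, 30 of the 60 such TRAV12 contigs came from 2 clones.

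Nonproductive full-length contigs, which encode no working chain, gave a second reading of the family's use. TRAV12 made up 5.35% and 4.18% of them in Tet2KO NOD 1 and 2, and 7.85% and 7.93% in NOD 1 and 2, on 24, 17, 121 and 60 contigs. The genotypes did not overlap (difference -3.13 points, exact permutation p = 0.333, the smallest possible). Relative to its productive share, the nonproductive share was higher in 3 of 4 libraries, by 1.07 points on average ± 1.78 (SD over 4 libraries; exact sign-flip permutation p = 0.375). With nonproductive contigs of any length the difference was 7.39 points and positive in 4 of 4 libraries, since the truncated TRAV12 contigs then count as nonproductive.

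All 43 TRAJ segments seen with other TRAV also occurred with TRAV12, and the 5 most used covered only 24.7% of TRAV12 rearrangements. TRAJ23 led with 34 of 514 rearrangements (6.61%, against 4.62% of other TRAV), followed by TRAJ57 (27), TRAJ26 (23), TRAJ32 (22) and TRAJ31 (21). TRAJ23 joined 13.6% and 4.17% of the TRAV12 rearrangements of Tet2KO NOD 1 and 2, and 6.67% and 5.47% of those of NOD 1 and 2. With 6, 3, 18 and 7 rearrangements behind them, these shares are imprecise. Its log2 fold change for TRAV12 over other TRAV was 0.53 ± 0.35 (SE; adjusted p = 0.756 by edgeR), and 0.34 without Tet2KO NOD 1. None of the 41 TRAJ segments tested passed (0% of the table) in edgeR or DESeq2, and 3 had an unadjusted p under 0.05 in edgeR and 1 in DESeq2. TRAJ57 joined 4 and 1 TRAV12 rearrangements in Tet2KO NOD 1 and 2 (9.09% and 1.39%), and 11 and 11 in NOD 1 and 2 (4.07% and 8.59%), against 2.19% to 3.57% of other TRAV rearrangements. It was above other TRAV in 3 of 4 libraries and below in Tet2KO NOD 2 (log2 fold change 0.81 ± 0.42, SE; adjusted p = 0.558 by edgeR). TRAJ26, TRAJ32 and TRAJ31 had log2 fold changes of 0.42, 0.39 and -0.04, with adjusted p of 0.766, 0.766 and 0.950 by edgeR. The value of TRAJ26 was 0.84 without NOD 1 and 0.15 without Tet2KO NOD 2.

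The 3 segments with a low unadjusted p, TRAJ7, TRAJ44 and TRAJ40, were chosen for mention after their values were seen. Of the 43 TRAJ segments, TRAV12 was above other TRAV in each library for 2 and below in each for 3. TRAJ7 came nearest to the threshold. It joined 2 and 1 TRAV12 rearrangements in Tet2KO NOD 1 and 2 (4.55% and 1.39%), and 9 and 3 in NOD 1 and 2 (3.33% and 2.34%), against 0.875% to 1.03% of other TRAV rearrangements. TRAV12 was above other TRAV in 4 of 4 libraries, with a log2 fold change of 1.66 ± 0.51 (SE) and an adjusted p of 0.0645 by edgeR, and adjusted p between 0.0271 and 0.783 over its alternatives. Without Tet2KO NOD 2, edgeR called 2 segments, TRAJ7 higher (adjusted p = 0.0271) and TRAJ44 lower. TRAJ44 had 0 of 44 TRAV12 rearrangements in Tet2KO NOD 1 (up to 6.82% allowed), 2 of 72 in Tet2KO NOD 2, and 0 of 270 and 0 of 128 in NOD 1 and 2 (up to 1.11% and 2.34% allowed), against 0.752% to 1.71% of other TRAV rearrangements. With all libraries its adjusted p was 0.442 by edgeR, and 0.0271 to 0.875 over its alternatives. TRAJ40 had 1 and 0 TRAV12 rearrangements in Tet2KO NOD 1 and 2 (2.27%, and 0 of 72, which allows up to 4.17%), and 8 and 2 in NOD 1 and 2 (2.96% and 1.56%). In other TRAV it had 4.10% to 5.83%, so TRAV12 was lower in 4 of 4 libraries (log2 fold change -1.08 ± 0.50, SE; adjusted p = 0.442 by edgeR).

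**Figure D3:**
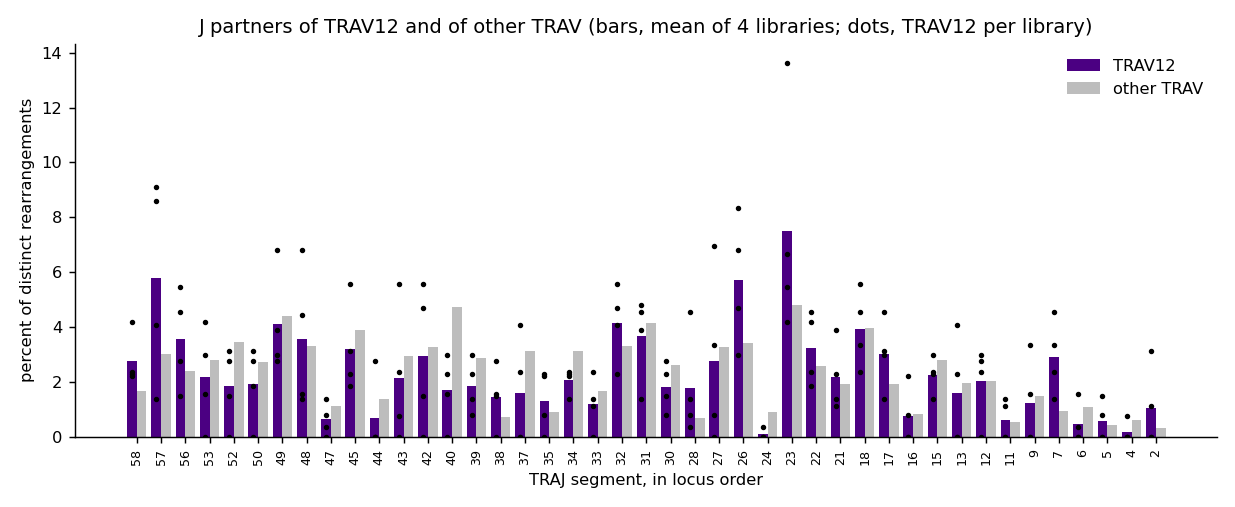
Percent of distinct rearrangements that used each TRAJ segment, in locus order, for TRAV12 and other TRAV (bars, mean of 4 libraries) with the TRAV12 value of each library (dots). TRAJ23 has the tallest TRAV12 bar, and TRAJ7 lies above other TRAV in each library.

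Grouped by position, the upstream segments TRAJ58 to TRAJ40 took 34.6% of TRAV12 rearrangements, TRAJ39 to TRAJ21 took 41.1% and the downstream segments TRAJ20 to TRAJ2 took 24.3%. The downstream share of TRAV12 was 18.2% and 13.9% in Tet2KO NOD 1 and 2, and 30.0% and 20.3% in NOD 1 and 2, against 17.8% to 19.9% in other TRAV. The genotypes did not overlap (difference -9.12 points, exact permutation p = 0.333, the smallest possible). NOD 1 was the high library, 10.5 points above its other TRAV, and the family difference over 4 libraries was 1.73 points ± 6.25 (SD; exact sign-flip permutation p = 0.625). Over the 4 libraries together, TRAV12-1 used the upstream group in 46.4% of 69 rearrangements, and TRAV12N-1 used the middle group in 58.2% of 55. In TRAV12-1 the upstream share was 30.0% and 42.9% in Tet2KO NOD 1 and 2, and 44.4% and 62.5% in NOD 1 and 2, on 10, 7, 36 and 16 rearrangements. In TRAV12N-2 it was 45.0% and 47.1% in Tet2KO NOD 1 and 2, above TRAV12-1, and 19.2% and 41.3% in NOD 1 and 2, below it. These differences between members were not tested.

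The 2 forms of TRAV12N-2 also differed in their J partners, a contrast noticed in the data and given without a test. The rarer form used downstream segments in 42.6% of 94 rearrangements, against 21.7% of 143 in the commoner form. In NOD 1 and 2 the rarer form used them in 25 of 50 and 11 of 23 rearrangements, and the commoner form in 23 of 70 and 2 of 40. In Tet2KO NOD 1 and 2 the rarer form used them in 2 of 7 and 2 of 14, and the commoner form in 2 of 13 and 4 of 20. The rarer form was thus higher in 3 of 4 libraries, and Tet2KO NOD 2 went the other way on few rearrangements.

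The CDR3 of TRAV12 rearrangements was 13.5 residues long on average (range 9 to 18), counted from the conserved cysteine to the closing phenylalanine or its equivalent. Lengths of 13 residues (31.5%) and 14 residues (26.8%) were the most frequent, against 27.5% and 29.9% in other TRAV. Mean length was 13.6 and 13.8 residues in Tet2KO NOD 1 and 2, and 13.5 and 13.5 in NOD 1 and 2. TRAV12 minus other TRAV came to -0.07 residues ± 0.13 (SD over 4 libraries), negative in 3 of 4 libraries (exact sign-flip permutation p = 0.375). Members lay between 13.4 (TRAV12N-2) and 13.6 residues (TRAV12-3 and TRAV12N-1), and differences between members were not tested. Between genotypes the mean length differed by 0.207 residues without overlap (exact permutation p = 0.333, the smallest possible).

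TRAV12 CDR3 opened with the residues CAL in 460 of 514 rearrangements (89.5%), which are encoded by the end of the V segment, against 15.9% ± 0.108 of other TRAV rearrangements (mean and SD of 4 libraries). The fourth residue, the first after that motif, was serine in 61.4% and 55.6% of TRAV12 rearrangements in Tet2KO NOD 1 and 2, and in 51.5% and 52.3% in NOD 1 and 2. Other TRAV had serine there in 39.7% to 40.8%. TRAV12 was higher in 4 of 4 libraries, by 14.7 points ± 4.97 (SD; exact sign-flip permutation p = 0.125, the smallest possible). The V segment can supply that residue too, so it is not independent of the V name. Arginine or lysine stood there in 19.8% of TRAV12 rearrangements. The mean net charge of the CDR3, counting arginine and lysine as 1 and aspartate and glutamate as -1, was between 0.764 and 0.844 in the 4 libraries, against 0.768 to 0.813 in other TRAV.

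Of the 762 contigs, 710 were in cells with 1 productive beta chain (TRB), 39 in cells with more and 13 in cells with none. These gave 476 distinct pairs of a TRAV12 rearrangement and a TRB, with 20 TRBV segments. The joined name TRBV12-2+TRBV13-2 led with 66 pairs (13.9%), followed by TRBV5 (48), TRBV1 (35), TRBV13-1 (35) and TRBV2 (33). TRBV5 was the partner in 10.0% and 17.1% of TRAV12 pairs of Tet2KO NOD 1 and 2, and in 8.13% and 10.0% of those of NOD 1 and 2, against 9.67% to 10.7% with other TRAV. TRBV1 was the partner in 0 of 40 pairs of Tet2KO NOD 1 (up to 7.50% allowed), 8.57% in Tet2KO NOD 2, and 9.35% and 5.00% in NOD 1 and 2. None of the 20 TRBV segments tested passed (0% of the table) by edgeR or DESeq2, with 1 at an unadjusted p under 0.05 in edgeR and 0 in DESeq2. That segment, TRBV12-1, was with 4 and 1 pairs in Tet2KO NOD 1 and 2, and 5 and 4 in NOD 1 and 2, above other TRAV in each library (log2 fold change 0.98 ± 0.48, SE; adjusted p = 0.345 by edgeR, and 0.247 to 0.704 over its alternatives). It was named after its values were seen. Of the 22 TRBV segments seen, TRAV12 was above other TRAV in each library for 3 and below in each for 4. In NOD 2, 1 of the TRBV12-1 pairs, in 1 cell, differs by 1 base from the clone of 19 cells described below. Of its 14 pairs, 7 carried TRAV12-1, in which it made up 10.8% of 65 pairs. By member, TRBV12-2+TRBV13-2 was the leading or joint leading partner of TRAV12-1 (9 of 65 pairs), TRAV12-3 (19 of 133), TRAV12N-1 (8 of 50) and TRAV12N-2 (30 of 218), and TRBV5 equalled it in TRAV12N-2.

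**Figure D4:**
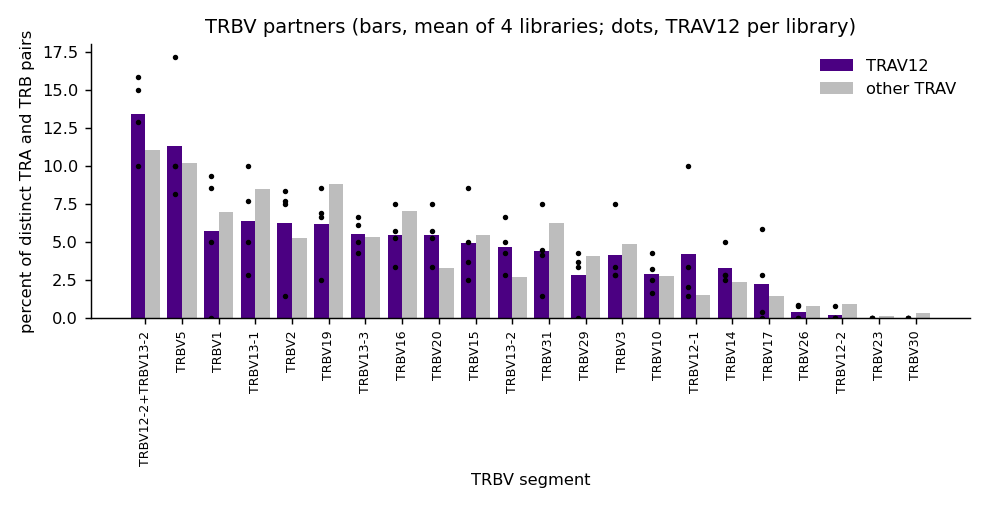
Percent of distinct TRA and TRB pairs with each TRBV segment, for TRAV12 and other TRAV (bars, mean of 4 libraries) with the TRAV12 value of each library (dots). The joined name TRBV12-2+TRBV13-2 and TRBV5 have the tallest TRAV12 bars.

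TRBJ2-7 was the J partner on the beta chain of 94 of 476 TRAV12 pairs (19.7%, against 20.6% of other TRAV), followed by TRBJ2-5 (59), TRBJ2-3 (55), TRBJ1-1 (53) and TRBJ2-1 (45). It took 10.0% and 21.4% of TRAV12 pairs in Tet2KO NOD 1 and 2, and 18.3% and 25.0% in NOD 1 and 2, so Tet2KO NOD 1 was the low library, with 4 of 40 pairs. All 12 TRBJ segments seen were used, and 0 of the 12 passed (0% of the table) by edgeR or DESeq2, with 0 at an unadjusted p under 0.05 in either. TRBJ1-1 had the highest log2 fold change of these 5, 0.27 ± 0.19 (SE; adjusted p = 0.976 by edgeR).

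A second productive alpha chain was present in the cell for 163 of 762 TRAV12 contigs (21.4%), against 22.6% of other TRAV contigs. In Tet2KO NOD 1 and 2 the share was 29.4% and 23.4%, above the 19.4% and 21.3% of other TRAV. In NOD 1 and 2 it was 22.9% and 15.3%, below the 23.1% and 24.3% of other TRAV. This split was not tested. In cells with a second alpha chain, the TRAV12 contig had the more UMIs (unique molecular identifiers, which count captured transcripts) in 79 of 163 cases. That was 26.7% and 36.4% of cases in Tet2KO NOD 1 and 2, and 52.6% and 54.8% in NOD 1 and 2. The median TRAV12 contig had 3 and 4 UMIs in Tet2KO NOD 1 and 2, and 5 and 6 in NOD 1 and 2, and that of other TRAV had 5 and 6, and 5 and 6. TRAV12 contigs thus had fewer UMIs than the rest in the Tet2KO NOD libraries. The part of UMI depth in the TRAV12 share was not tested in full, and with contigs of at least 2 UMIs the difference in share between genotypes was -2.30 points.

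Most TRAV12 rearrangements were found in 1 cell: 457 of 514, with 31 in 2 cells, 19 in 3 to 9 and 7 in 10 or more. Rearrangements in 2 or more cells, called expanded here, made up 11.4% and 11.1% of TRAV12 in Tet2KO NOD 1 and 2, and 11.9% and 9.38% in NOD 1 and 2. In other TRAV they made up 20.4% and 18.0% in Tet2KO NOD 1 and 2, and 15.7% and 14.2% in NOD 1 and 2. TRAV12 was lower in 4 of 4 libraries, with a mean difference of -6.15 points ± 2.30 (SD; exact sign-flip permutation p = 0.125, the smallest possible). After thinning to 1671 TRA contigs per library the difference was -5.61 points, and with truncated contigs that have a CDR3 counted it was -3.47, both chosen after seeing the data. With those truncated contigs TRAV12 stood at 18.3% in Tet2KO NOD 1, against 20.1% for other TRAV. Some of their TRAV12 CDR3 had only 15 bases, and others began upstream of the start seen in productive CDR3. Not all of them need encode a working chain. Between genotypes the TRAV12 value differed by 0.624 points, with overlap (exact permutation p = 1).

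Large clones followed another pattern. The 7 TRAV12 rearrangements of 10 or more cells were all in NOD libraries, 5 in NOD 1 and 2 in NOD 2, and held 24.2% and 27.6% of the TRAV12 contigs there, against 22.2% and 15.8% in other TRAV. In Tet2KO NOD 1 and 2, 0 of 51 and 0 of 94 TRAV12 contigs were in such clones. Other TRAV had 25.0% and 9.07% there. Bounds of 5.88% and 3.19% on these 0 counts take contigs as independent, which contigs of 1 clone are not. By rearrangement, such clones were 0 of 44 and 0 of 72 in TRAV12 of Tet2KO NOD 1 and 2. In other TRAV they were 22 of 1004 and 11 of 1064. In NOD 1 and 2 they were 5 of 270 and 2 of 128 in TRAV12. Other TRAV there had 61 of 3884 and 20 of 1876. The exact permutation test between genotypes gave p = 0.333 for the share of contigs, the smallest possible. TRAV12 minus other TRAV averaged -5.10 points over the 4 libraries (exact sign-flip permutation p = 0.75), and 1.54 without Tet2KO NOD 1. The truncated TRAV12 clones of 16 and 14 cells in Tet2KO NOD 1 are not counted in these values. With all truncated contigs counted, an alternative chosen after seeing the data, 30 of 111 TRAV12 contigs of Tet2KO NOD 1 (27.0%) and 0 of 129 of Tet2KO NOD 2 were in such clones, and 19.8% and 23.2% in NOD 1 and 2. Contigs without a CDR3 were grouped in it by V, J and the TRB of the cell.

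**Figure D5:**
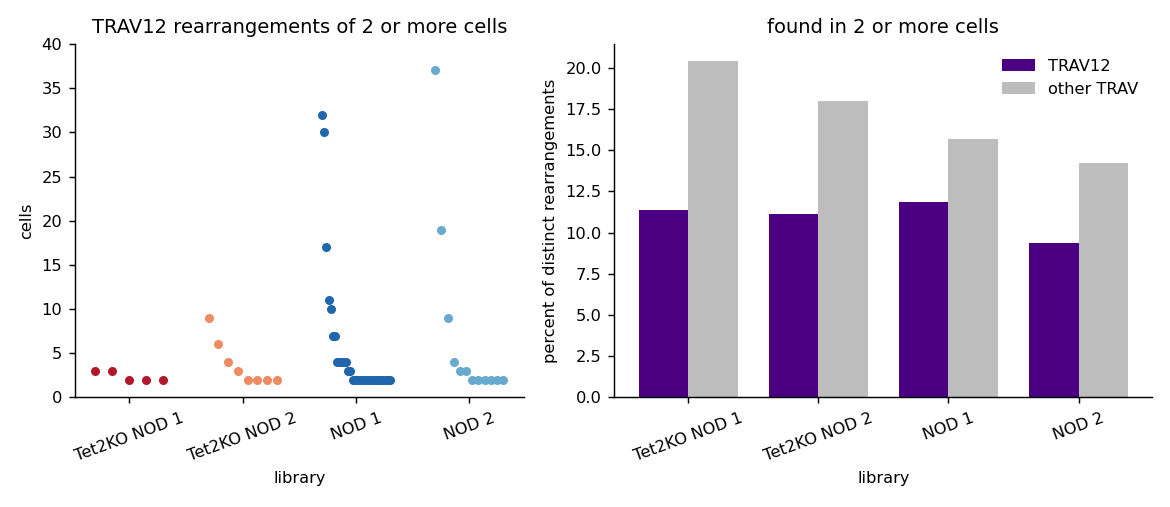
Left, cells per TRAV12 rearrangement for rearrangements of 2 or more cells (1 point each) in each library. Right, percent of distinct rearrangements found in 2 or more cells, where TRAV12 lies below other TRAV in all 4 libraries.

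By member, TRAV12N-2 held the 3 largest clones and TRAV12-1 the 4th. TRAV12N-2 averaged 1.67 cells per rearrangement, TRAV12-1 1.68, TRAV12N-1 1.38, TRAV12-3 1.15 and TRAV12D-3 1.00. Within TRAV12N-2, the commoner CDR1 form averaged 2.05 cells per rearrangement and held all 5 TRAV12N-2 clones of 10 or more cells, while the rarer form averaged 1.09 cells and had no clone above 3 cells. These are descriptions without a test, since a few clones decide the averages.

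The largest clone was in NOD 2, with 37 cells of TRAV12N-2 and TRAJ49, or 18.2% of the TRAV12 contigs of that library. NOD 1 held a clone of 30 cells with the same V and J segments. Each was paired with TRBV19 and TRBJ1-1, in 36 cells of NOD 2 and 29 cells of NOD 1. The receptors are shown because they are nearly identical but were joined differently. The CDR3 sequences run 5′ to 3′, and capitals mark the bases that differ between the libraries.
NOD 1 TRA CDR3, TRAV12N-2 and TRAJ49: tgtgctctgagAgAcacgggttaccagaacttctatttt
NOD 2 TRA CDR3, TRAV12N-2 and TRAJ49: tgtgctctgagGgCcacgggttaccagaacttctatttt
NOD 1 TRB CDR3, TRBV19 and TRBJ1-1: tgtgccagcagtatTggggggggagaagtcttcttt
NOD 2 TRB CDR3, TRBV19 and TRBJ1-1: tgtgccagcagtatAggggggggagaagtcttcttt

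Counted from 1 at the first base of CDR3 and written from NOD 1 to NOD 2, the alpha chains differ by A12G and A14C, which change 1 of 13 residues, D5A. The beta chains differ by T15A, which leaves the 12 residues the same. The NOD 1 form of the beta chain was in 40 called cells of NOD 1 and 0 of NOD 2, and the NOD 2 form in 42 called cells of NOD 2 and 0 of NOD 1. In Tet2KO NOD 1 and 2, 0 of 1957 and 0 of 1664 called cells had either, which allows up to 0.153% and 0.180%. These bounds take cells as independent, which cells of 1 clone are not, and do not cover the spread between pools. In NOD 1, 27 of the 30 cells also carried a second alpha chain of TRAV13N-3 and TRAJ47. Truncated contigs of the same alpha CDR3 occurred in 7 cells of NOD 1 and 6 of NOD 2.

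No other TRAV12 clone of 10 or more cells had a receptor of the same 4 segments with at most 1 residue of difference per CDR3 in another library. NOD 1 held 32 cells of TRAV12N-2 and TRAJ12 with TRBV12-2, 17 of TRAV12N-2 and TRAJ42 with TRBV31, and 11 of TRAV12N-2 and TRAJ12 with TRBV20. NOD 2 held 19 cells of TRAV12-1 and TRAJ56 with TRBV12-1. The largest clone of Tet2KO NOD 2 had 9 cells of TRAV12N-1 and TRAJ21 with TRBV5. In Tet2KO NOD 1 the largest were 2 clones of 3 cells, TRAV12-1 and TRAV12N-1, each with TRAJ28. The alpha CDR3 of the next 3 clones by cells after the TRAJ49 pair (32, 19 and 17 cells) and of the largest clone of Tet2KO NOD 2 are shown, with no base marked.
NOD 1, TRAV12N-2 and TRAJ12: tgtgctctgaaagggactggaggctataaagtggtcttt
NOD 2, TRAV12-1 and TRAJ56: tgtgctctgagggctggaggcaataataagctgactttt
NOD 1, TRAV12N-2 and TRAJ42: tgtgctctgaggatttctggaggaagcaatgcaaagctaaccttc
Tet2KO NOD 2, TRAV12N-1 and TRAJ21: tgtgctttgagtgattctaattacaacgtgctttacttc

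Receptors were set against each other in pairs with the same 4 segments and at most 1 residue of difference in each CDR3. Among 476 TRAV12 pairs this found 2 near-identical matches across libraries and 2 within a library. So 4 pairs (0.840%) had a near-identical match in another library. Among 7459 pairs of other TRAV, 234 (3.14%) had one. Each TRAV12 match counted differs by at least 1 base. Receptors with the same TRA and TRB nucleotides in 2 libraries, given below, are not among them. Beside the TRAJ49 clones, the match across libraries was TRAV12-1 and TRAJ32 with TRBV12-1 and TRBJ1-4, 1 cell each in NOD 1 and NOD 2, whose chains differ by C10A and T12G in TRA and by A15C and A21G in TRB without changing a residue. Within NOD 1, a clone of 10 cells of TRAV12-1 and TRAJ48 and another of 4 cells differ by A15G in TRA, written from the larger to the smaller, with no residue changed and the same TRB. Within NOD 2, 1 cell and the 19 cells of TRAV12-1 and TRAJ56 differ by A11G (K4R), written from the 1 cell to the 19, with the same TRB. A sequencing or assembly error was not told apart from a separate join in these 1-base pairs.

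Identical alpha nucleotides in more than 1 library were rare, at 4 of 510 distinct TRAV12 rearrangements (0.784%), against 232 of 7559 (3.07%) in other TRAV. TRAV12-3 with TRAJ42 occurred in 1 cell of Tet2KO NOD 2 and 3 cells of NOD 2, with the same TRBV29 chain to the nucleotide. TRAV12N-2 with TRAJ30 occurred in 1 cell of Tet2KO NOD 1 and 1 of NOD 1, again with the same TRB. TRAV12-1 with TRAJ50 occurred in 1 cell of Tet2KO NOD 2 and 1 of NOD 1, and TRAV12N-2 with TRAJ15 in 2 cells of NOD 1 and 2 of NOD 2, with different TRB chains. Of the called barcodes, 81 occurred in more than 1 library, including those of 10 TRAV12 cells, but none of the 4 shared rearrangements had a barcode in common. Movement of molecules between libraries was not tested.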

How the data were processed

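The deposited tables hold, per contig, whole-number counts of reads and UMIs and the contig length in bases, beside segment names, CDR sequences and quality flags, as deposited by the authors. The submitters' processing notes name Cell Ranger 7.0.1 and the builds GRCm38 and mm10. The V(D)J segment set behind the names was not given in the sources used here. The tables summed to 114106599 and 85137263 reads in Tet2KO NOD 1 and 2, and 220516119 and 140478435 in NOD 1 and 2, with 1957, 1664, 6835 and 2889 called cells.

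The members and lists were chosen with earlier results of these data known. Members were taken from contigs flagged is_cell, high_confidence, full_length and productive. Rearrangements were tested by edgeR 4.0.16 (quasi-likelihood, R 4.3.3) on distinct rearrangements, keeping features that reached a count of 10 in 2 or more columns, the number of rearrangements or pairs as library size and Benjamini-Hochberg adjustment over each whole table. Genotype fits used 4 libraries. Partner fits used 8 columns, TRAV12 and other TRAV of each library, with library as a block, and TRB fits used cells with exactly 1 TRB. Each standard error is the log2 fold change divided by the square root of F, an approximation. DESeq2 1.42.0 was an alternative, as were TMM factors, no count filter, contigs in place of rearrangements, possible doublets (over 1 TRB or over 2 TRA, kept otherwise) left out, and each library left out. Alternatives with truncated contigs and thinning were chosen after seeing the data. Single values were compared by exact two-sided permutation of the 6 assignments of libraries, or by exact sign-flip over 4 libraries. Wilson intervals are at 95%, and a count of 0 allows up to 3 counts of the total; both cover counting error only. The scripts were tested on simulated data.

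Named were each TRAV12 segment, TRAJ, TRBV and TRBJ partners past an adjusted p of 0.05 and the 5 most used by TRAV12, the largest TRAV12 clone of each library, the 5 largest overall and rearrangements in more than 1 library. Sequences and names are the authors'. V regions were compared with GENCODE M21 transcripts of GRCm38, the build the notes name, by ungapped match. P-values of the exact tests measure the spread between pools, not between mice. Those of edgeR and DESeq2 also take in counting error. In the partner fits, with library as a block, they concern the spread of the TRAV12 difference across pools.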

Additional observations from a re-analysis of the deposited data

Results flagged for a closer look

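TRAV12 contigs marked not full length, which enter no comparison of members, numbered 60 and 35 in Tet2KO NOD 1 and 2, and 162 and 69 in NOD 1 and 2. They stood out as signal outside the productive contigs, and as a share of TRAV12 contigs they were highest in Tet2KO NOD 1. There 30 of the 60 came from 2 clones, of 16 and 14 cells. The cause of the truncation was not tested.

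The share of contigs in clones of 10 or more cells, TRAV12 minus other TRAV, had opposite signs in the genotypes. It was -25.0 and -9.07 percentage points in Tet2KO NOD 1 and 2, and 1.95 and 11.7 in NOD 1 and 2. The split did not hold with all truncated contigs counted, where the differences were 2.62 and -8.80 points in Tet2KO NOD 1 and 2, and -2.12 and 7.91 in NOD 1 and 2. It held with only the truncated contigs that have a CDR3 added, at -8.43 and -8.92 points in Tet2KO NOD 1 and 2, and 0.616 and 9.87 in NOD 1 and 2. Both alternatives were chosen after seeing the data.

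The same split was seen for 3 of the 18 named partners and for 6 of all 73 partner segments tested (8.22%), each as percent of TRAV12 rearrangements or pairs minus that of other TRAV. For TRBV5 the differences were 0.326 and 7.23 points in Tet2KO NOD 1 and 2, and -2.55 and -0.491 in NOD 1 and 2. For TRBJ2-5 they were 9.25 and 1.67 points in Tet2KO NOD 1 and 2, and -1.19 and -0.685 in NOD 1 and 2. For TRBJ1-1 they were -1.96 and -4.20 points in Tet2KO NOD 1 and 2, and 2.78 and 4.87 in NOD 1 and 2. None of these differences between genotypes was tested.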

How the results depend on the processing

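The comparisons of single values kept their direction under each alternative run, except the share in clones of 10 or more cells, which turned sign without Tet2KO NOD 1. Their p could not fall under 0.05 with so few libraries, so their side of the threshold was fixed in advance. The number of called segments, families or partners stayed at 0 in each fit, except for TRAJ segments, with 2 called without Tet2KO NOD 2. TRAJ44 had an adjusted p of 0.0271 by edgeR there, against 0.442 with all libraries. For the differences between libraries, the values when a library was left out ran from -3.69 to -0.74 points for the TRAV12 share, -0.14 to -0.04 residues for CDR3 length, -6.92 to -5.18 points for the expanded share, -10.7 to 1.54 points for the share in clones of 10 or more cells and 0.53 to 1.9 points for the nonproductive share. For single segments and partners, the alternatives below turned the sign of values that had not passed the test, and the cause was not tested. Counting each contig turned TRAV12N-1 (0.83), TRAJ32 (-0.22), TRBV5 (0.082), TRBV1 (-0.23), TRBV2 (-0.040) and TRBJ2-3 (-0.026). DESeq2 turned TRBV5 (0.021), TRBV1 (-0.17) and TRBJ2-7 (0.011), and NOD libraries alone turned TRAJ31 (0.19). When a library was left out, log2 fold changes ran from -0.45 to 0.18 for TRAV12-1, -1.08 to 0.024 for TRAV12-3, -0.82 to 0.22 for TRAV12N-1 and -0.64 to 0.0042 for TRAV12N-2. They ran from -0.30 to 0.20 for TRAJ31, -0.25 to 0.26 for TRBV5, -0.37 to 0.22 for TRBV1, -0.15 to 0.0049 for TRBJ2-7, -0.072 to 0.20 for TRBJ2-5, -0.067 to 0.15 for TRBJ2-3 and -0.31 to 0.016 for TRBJ2-1.

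With same-numbered libraries paired, the TRAV12 share differed by -2.21 points (exact sign-flip permutation p = 0.5, the smallest that 2 pairs allow). In a fit with a replicate block for the set number, the family differed by a log2 fold change of -0.31, and 0 segments were called. The labels do not say that a set number marks a shared batch. Deviations of same-numbered libraries from their genotype mean had a correlation of -0.13 over 96 segments.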
